A study of Mus musculus with 30 samples.

Results

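The comparison set 5 libraries of 3T3L1 adipocytes treated with IS against 5 libraries of untreated control adipocytes, 10 of the 30 libraries of the series, chosen by their column names with the libraries that also received pNaKtide left aside. 3T3L1 is a mouse preadipocyte line that accumulates lipid and turns on adipocyte genes in adipogenic medium. All cells were kept for 5 days in medium with insulin, dexamethasone, isobutylmethylxanthine and indomethacin, so that control cells carried these agents as well, and IS was given at 100 µM. The sample labels give 5 days of treatment, while the methods of the study give a shorter one, and the text on RNA extraction names adipose tissue although source and cell line are 3T3 cells. Libraries of cells given oxLDL at 50 µg/mL were used for a further comparison. All libraries come from 1 cell line, and nothing in the labels says whether the 5 libraries of a group were separate cultures, so that p-values measure the spread between these libraries.

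Indoxyl sulphate is made from dietary tryptophan by way of indole of gut bacteria and a sulfation step in the liver, and it accumulates when the kidneys fail. It is taken up by organic anion transporters, can bind the aryl hydrocarbon receptor AhR, and is known to raise oxidant stress in several cell types. Adipocytes store triglyceride, secrete adiponectin and other hormones, and surround themselves with a basement membrane of collagens and laminins. The secretory load of such cells is handled in the ER by chaperones such as Hspa5 and Calr, and the transcription factor ATF4 turns on genes of amino acid synthesis and uptake when protein folding or amino acid supply is limiting.

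Lists of genes for these roles were compared between IS and control cells. With IS, the genes past the threshold in the lists of amino acid synthesis, ER protein processing, collagens, laminins, cholesterol synthesis, glycolysis and secreted adipokines were mostly or all lower than in control cells, by about 0.2 to 0.9 on the log2 scale. Col15a1, a collagen of the basement membrane zone, had the smallest adjusted p-value of all genes and fell to 18.3 ± 1.45 CPM from 34.6 ± 6.63 CPM in control cells (SD, n = 5). Zinc finger genes were the largest list with mainly higher calls. Of 11 genes of the AhR pathway, 1 was called higher and 1 lower (18.2%, against 7.94% of all genes), and without a pair of libraries that stood apart the called share, 45.5%, was that of all genes, 45.4%. The number of genes called was 1599, and it ranged from 15 to 6952 when a single library was left out. Values are CPM, counts scaled to library depth with TMM factors, and a log2 fold change is IS minus control. A gene was called where the BH adjusted p-value of the edgeR quasi-likelihood test, fitted over all 30 libraries, was below 0.1.

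Control libraries held 10104438 to 13219298 reads counted on genes and IS libraries 11318450 to 15159877, with means of 11310714 and 14015658 (two-sided exact permutation test of the means, p = 0.0238, adjusted p = 0.0714 over 3 measures, where 0.00794 was the smallest p possible). The share of reads on mitochondrially encoded genes was 5.00% ± 0.36 with IS and 4.51% ± 0.758 in control cells (SD, n = 5, exact permutation test, adjusted p = 0.214). The difference of 0.488 percentage points was 0.228 without Control 5 and 0.724 without Control 1, the lowest and highest values with 1 library left out. The 100 most abundant genes took 22.9% ± 1.04 and 24.1% ± 0.57 of the reads (exact permutation test, adjusted p = 0.119). Adipocyte markers were high in every library, for example Cidec with 3713 to 6639 CPM and Fabp4 with 2041 to 2849 CPM over the 10 libraries. The summed level of the 7 adipocyte markers was 13096 to 16644 CPM in control and 11062 to 14040 CPM in IS libraries. Of the markers of other cell types, Ptprc, Itgam, Cd3e and Myod1 had 0 counts over the 30 libraries, Cdh5 had 6 and Adgre1 4. Others were detected, among them the macrophage markers Cd68 (1569 counts) and Cd14 (1647), the muscle marker Des (6305) and the mesothelial marker Msln (500). Of 6 macrophage, 5 endothelial and 4 lymphocyte markers, 3, 1 and 0 had enough counts to be tested. None of these was called, where 7.94% of all genes were called. Of the muscle markers Acta1 was lower with IS (-0.71, 1 called of 2 tested), with summed levels of up to 27.2 CPM in control and 26.6 CPM in IS libraries. Of 5 epithelial and mesothelial markers, summed at 4.01 CPM or less, Krt8 was lower (-1.54). Of 6 preadipocyte markers tested, Col1a1 and Ly6a were called lower (33.3%, against 7.94% of all genes). Pdgfra was not called, at 97.9 to 154 CPM in control and 115 to 145 CPM in IS libraries. The sum over the 6 was 2126 to 3156 CPM in control and 1184 to 2436 CPM in IS libraries. Most of that sum was Col1a1, with 1809 to 2761 CPM in control and 933 to 2022 CPM in IS libraries. The part of these markers in the results was not tested. Fewer cells of a kind and less RNA per cell cannot be told apart in such libraries.

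A pair of libraries stood apart from their groups. In a principal component analysis of 12580 genes, the first component held 64.4% of the variance of the 30 libraries, and IS 1, 2, 3 and 5 scored 23.2 to 36.7 and Control 2 to 5 scored -29.9 to -6.5. The library labelled Control 1 scored 25.8 and the library labelled IS 4 scored -28.2. Each of them thus lay within the range that the other 4 libraries of the opposite group spanned. Whether the labels of these libraries were exchanged cannot be told from the files and was not tested. Every mean, SD and fold change over all 5 libraries of a group therefore holds for the labels as deposited. Counts for gene lists are given with all libraries and, for most lists, also without this pair. Which libraries to leave out was chosen because of these values, so that larger counts without them are a description and no independent support.

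**Figure D1:**
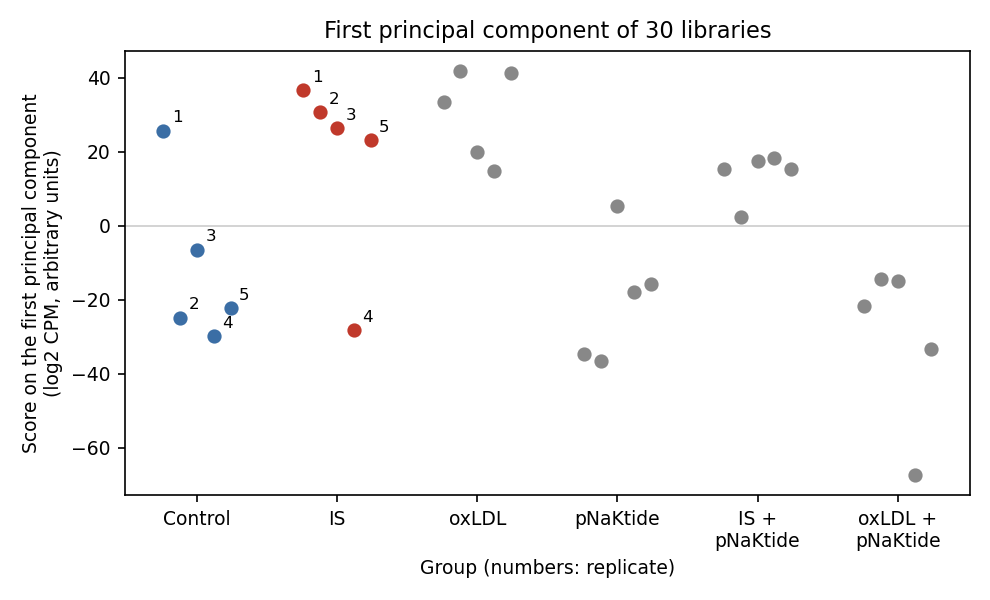
Score of each library on the first principal component of log2 CPM (vertical axis, arbitrary units) for the 6 groups of 5 libraries, with replicate numbers for Control and IS. Control 1 (25.8) sits among the IS libraries at 23.2 to 36.7, and IS 4 (-28.2) among Control 2 to 5 at -29.9 to -6.5.

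The libraries also differed in how their counts depended on gene length and GC content. Log2 CPM less each gene's mean over the 30 libraries was set against GC content, so that slopes are relative to the average library. The slope per 10 percentage points of GC content was -0.355 to -0.197 in IS 1, 2, 3 and 5 and 0.275 in IS 4. It was 0.0205 to 0.334 in Control 2 to 5 and -0.196 in Control 1. A fit that took both trends out of every library called 824 genes (4.09% of those tested), 540 of them among the 1599. After the trends were removed the first principal component held 45.7% of the variance, with Control 1 at 17.5 and IS 4 at -18.3. IS 1, 2, 3 and 5 scored 16.2 to 24.2 and Control 2 to 5 scored -17.9 to -6.5. Control 1 thus lay within the IS range, and IS 4 just beyond the range of these controls.

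Of 20139 genes tested, 1599 (7.94%) were called between IS and control cells. Higher with IS were 897 (4.45%) and lower 702 (3.49%), and the unadjusted p-value was under 0.05 in 5036. Most called differences were small, at a median size of 0.48 on the log2 scale, and 159 exceeded 2-fold. Groups that did not overlap, with every IS library on one side of every control library, were seen in 365 genes (1.81%), and 194 of them were called. Without Control 1 and IS 4, 9140 genes (45.4%) were called, 4791 higher (23.8%) and 4349 lower (21.6%), and they held 1598 of the 1599 genes, all in the same direction. With the pair left out and the trends taken out as well, 6612 genes (32.8%) were called. A fit of the 10 libraries by themselves gave 0 calls in edgeR, with a smallest adjusted p of 0.125 and an unadjusted p under 0.05 in 3465 genes. DESeq2 on all 30 libraries called 3160 genes, 1490 of them shared. When libraries were scaled by their totals alone, the median over all genes was 0.14 instead of 0.03, and 2125 genes were called higher against 416 lower. Under that scaling the members called were still lower more often than higher in the lists of ATF4 targets (8 and 1), ER processing (7 and 3), collagens (8 and 2) and cholesterol synthesis (7 and 2), while adipogenic transcription factors had 2 of each, fatty acid uptake and triglyceride synthesis 5 lower and 4 higher instead of 6 and 1, and laminins 4 lower instead of 8.

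**Figure D2:**
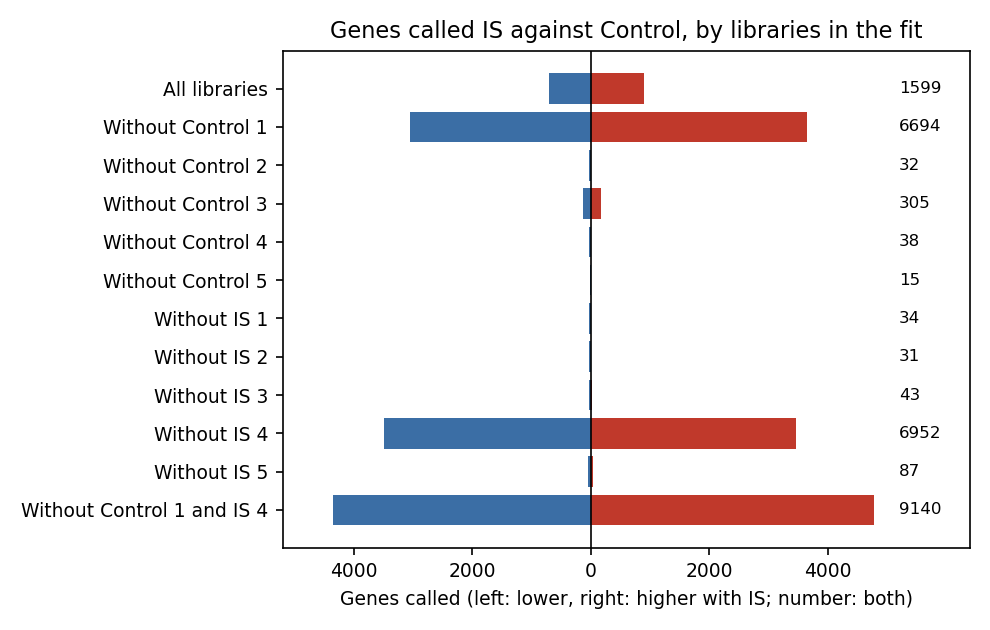
Number of genes called lower (left bars) and higher (right bars) with IS when the library named at the left was not in the fit. Leaving out Control 1 or IS 4 raised the total from 1599 to 6694 and 6952, and leaving out any other library of these groups lowered it to between 15 and 305.

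The counts moved with single libraries in both directions. Without Control 1 edgeR called 6694 genes and without IS 4 it called 6952. Without Control 2, 3, 4 or 5 it called 32, 305, 38 and 15 genes, and without IS 1, 2, 3 or 5 it called 34, 31, 43 and 87. Of the 9140 genes called without the pair, the library labelled Control 1 was nearer to the mean of the other 4 IS libraries than to the mean of the other 4 control libraries in 7655 (83.8%), and the library labelled IS 4 was nearer to the control mean in 8012 (87.7%). Both libraries lay on the side of their own label in 265 genes (2.9%). Among the 1599 genes the corresponding numbers were 1125 (70.4%), 1287 (80.5%) and 148 (9.26%).

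When each of the 10 libraries was left out in turn, 13 genes were called every time, 12 of them lower and 1 higher with IS. They were chosen after their values were seen. Lower were Col15a1, the pseudogene Gm46546, Rasd1, Chac1, Fosl1, Trib3, Ces2g, Nr1d1, Anxa8, Sbsn, Pop1 and Dgat2, and higher was Socs2. In 5 of the 13 both Control 1 and IS 4 were nearer to the means of their own groups, and these were Col15a1, Gm46546, Rasd1, Fosl1 and Nr1d1.

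Col15a1 (ENSMUSG00000028339, chromosome 4 of GRCm38, 47208161 to 47313167) had 27.9, 33.0, 37.1, 30.4 and 44.8 CPM in Control 1 to 5 and 17.9, 18.9, 16.1, 20.01 and 18.7 CPM in IS 1 to 5. All IS libraries lay below all control libraries, Control 1 included. The log2 fold change was -0.92 (SE 0.13, adjusted p = 0.00105, edgeR), and it was -1.02 without the pair and -0.83 with the trends taken out as well. Nr1d1, which encodes the clock repressor REV-ERBα, had 30.9, 35.6, 38.1, 37.0 and 38.8 CPM in control cells and 20.8, 24.3, 21.0, 28.1 and 22.2 CPM with IS. The groups did not overlap, and IS 4 was the highest IS library and Control 1 the lowest control library. The log2 fold change was -0.63 (SE 0.1, adjusted p = 0.00203, edgeR), and with the trends taken out of all libraries Nr1d1 was at -0.46. It was the only called gene among 21 clock genes tested, 4.76% against 7.94% of all genes. Without the pair 6 were higher and 4 lower, 47.6% against 45.4% of all genes.

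Fosl1, a FOS family subunit of the transcription factor AP-1, had 31.7, 38.8, 35.0, 40.5 and 44.1 CPM in control cells and 24.0, 24.3, 21.2, 25.1 and 23.6 CPM with IS. Every IS library was below every control library, and the log2 fold change was -0.68 (SE 0.12, adjusted p = 0.00768, edgeR). With the trends taken out of all libraries Fosl1 was at -0.44, and at -0.37 with the pair left out as well. Rasd1, a dexamethasone-induced member of the Ras family, had 4.18, 4.66, 6.11, 4.85 and 5.49 CPM in control cells and 2.88, 2.81, 3.15, 2.63 and 2.56 CPM with IS. The groups did not overlap, and the log2 fold change was -0.84 (SE 0.16, adjusted p = 0.0131, edgeR), or -0.67 with the trends taken out of all libraries. Dexamethasone was in the medium of both groups. The other called members among 16 glucocorticoid-responsive genes tested were Mt2 (-0.50), Klf9 (0.39) and Pdk4 (0.44), so that 2 were higher and 2 lower (25% called, against 7.94% of all genes). Without the pair 6 were higher and 5 lower (68.8%, against 45.4%).

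Socs2, an inhibitor of cytokine and growth hormone receptors, had 22.97, 20.5, 23.9, 21.6 and 22.3 CPM in control cells and 32.9, 28.2, 32.5, 24.3 and 32.5 CPM with IS. All IS libraries were above all control libraries, by a narrow margin for IS 4. The log2 fold change was 0.44 (SE 0.08, adjusted p = 0.0154, edgeR), and with the trends taken out Socs2 was no longer called (adjusted p = 0.13, edgeR). Dgat2, which catalyses the last step of triglyceride synthesis, had 235, 286, 275, 303 and 298 CPM in control cells and 192, 196, 189, 243 and 187 CPM with IS. Control 1 and IS 4 overlapped and the other libraries did not. The log2 fold change was -0.47 (SE 0.09, adjusted p = 0.0113, edgeR), and it was -0.30 with the trends taken out of all libraries.

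**Figure D3:**
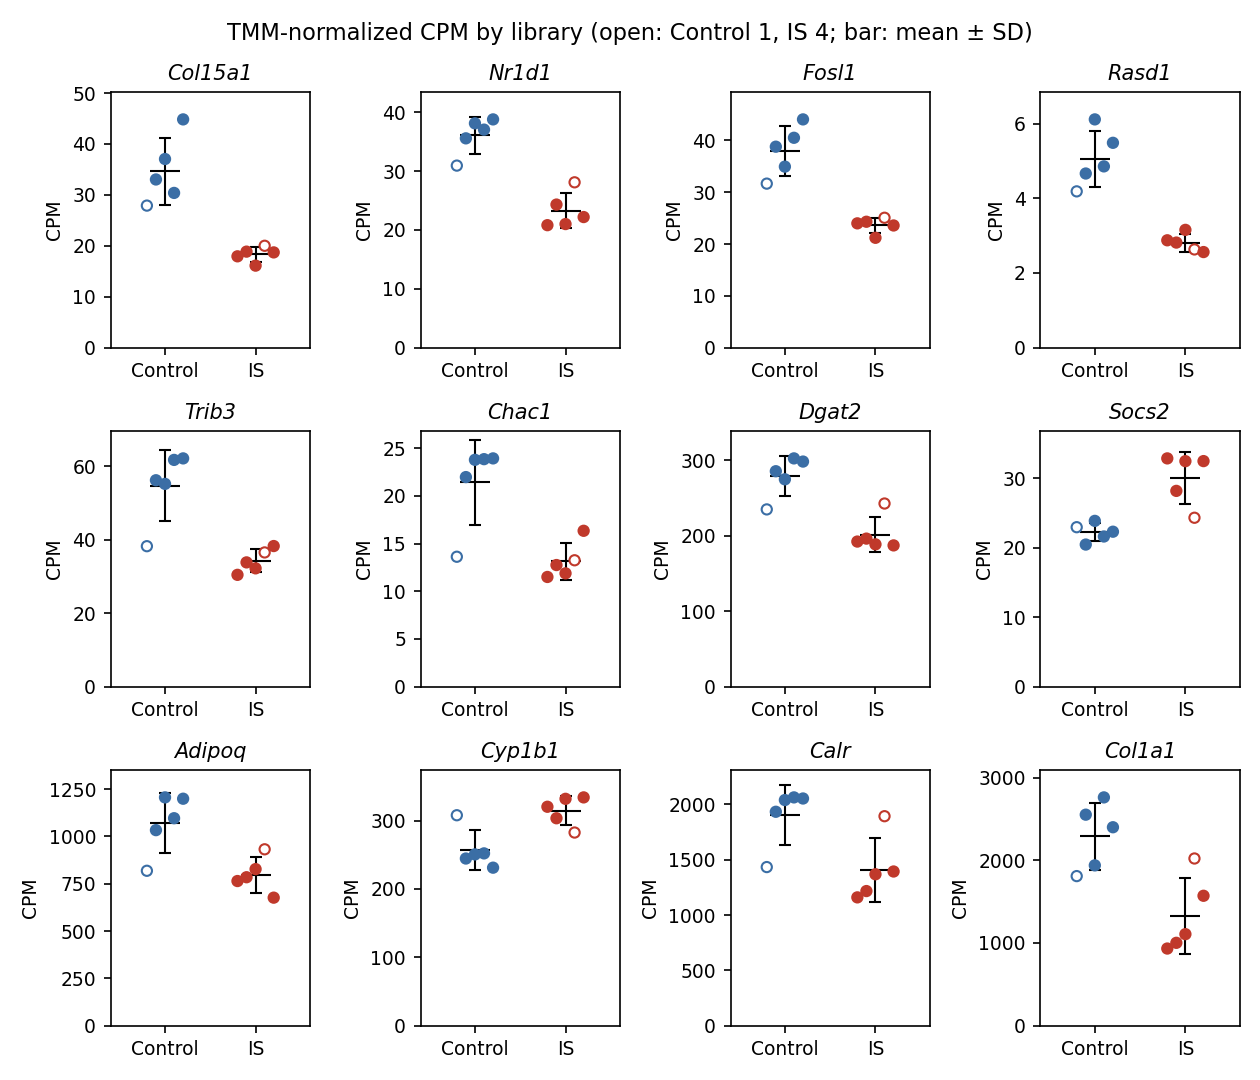
TMM-normalized CPM (vertical axes, from 0) of 12 genes in the 5 Control and 5 IS libraries, with the mean ± SD, open symbols marking Control 1 and IS 4. In Col15a1, Fosl1, Rasd1 and Nr1d1 the groups do not overlap. In Calr, Adipoq, Dgat2 and Col1a1 IS 4 lies above Control 1, and in Cyp1b1 below it.

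Where the groups did not overlap and the mean log2 CPM was 1 or more, Gpr35, a G protein-coupled receptor, had the largest fall among called genes, followed by Col15a1 and Sez6l2. Gpr35 had 1.97, 2.61, 3.25, 2.43 and 3.50 CPM in control cells and 1.5, 1.5, 1.48, 1.03 and 1.40 CPM with IS. The groups lay apart, and the log2 fold change was -0.96 (SE 0.19, adjusted p = 0.0178, edgeR), which missed the threshold only without Control 5 (adjusted p = 0.105, edgeR). Sez6l2 (-0.91), Ybx2 (-0.81) and Siglec1 (-0.68) were also lower. Gm46546 and Gm17511, both annotated as processed pseudogenes, were at -0.90 and -0.79 and the antisense gene Gm19531 at -0.70, and their reads may be shared with parent or overlapping genes. The largest rises were smaller, and they were those of Rnf219 (0.74), Rbbp8, a DNA end resection factor (0.66), and Nectin3, a cell adhesion molecule (0.64). Nectin3 had 13.2, 9.09, 12.5, 9.50 and 8.80 CPM in control cells and 15.9, 18.9, 15.2, 14.2 and 18.2 CPM with IS. With libraries left out in turn it was called 7 of 10 times. B230307C23Rik, Tbc1d32, 4930430F08Rik, Zfp61, Mfap3l, Wdr5b and Ccdc66 rose by 0.57 to 0.63 on the log2 scale. With the trends taken out of all libraries, Rbbp8 (0.38, adjusted p = 0.149, edgeR), B230307C23Rik (0.45, adjusted p = 0.121, edgeR) and Wdr5b (0.46, adjusted p = 0.113, edgeR) were not called. They were called with the pair left out as well. Tbc1d32, 4930430F08Rik, Mfap3l and Ccdc66 were called in neither of these fits, and changed by 0.09 to 0.21 with the pair and the trends taken out. Of the lower genes, Gm17511 (-0.37, adjusted p = 0.175, edgeR) and Gm19531 (-0.41, adjusted p = 0.165, edgeR) were not called with the pair and the trends taken out.

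Genes of amino acid synthesis and uptake that ATF4 controls gave the highest share of calls of the lists with at least 10 members tested. Of 19 tested, 10 were called, all lower with IS (7.94% of all genes were called), at a median log2 fold change of -0.31 against 0.03 for all genes. Without the pair 12 were lower and 1 higher (45.4% of all genes called), and with the trends taken out as well 12 were lower (16.1% of all genes lower in that fit). Chac1, a glutathione-degrading enzyme, had 13.6, 21.97, 23.8, 23.8 and 23.9 CPM in control cells and 11.5, 12.8, 11.9, 13.2 and 16.3 CPM with IS. Control 1 lay inside the range of the IS libraries, IS 4 was below all control libraries, and the log2 fold change was -0.70 (SE 0.14, adjusted p = 0.0164, edgeR). With the trends taken out of all libraries Chac1 was at -0.45. Asns, asparagine synthetase, had 169, 233, 258, 227 and 235 CPM in control cells and 162, 169, 178, 210.3 and 172 CPM with IS, and it fell by 0.33 on the log2 scale (adjusted p = 0.0817, edgeR).

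The synthesis enzymes for serine, proline and glycine were among the lower genes. Phgdh, the first enzyme of serine synthesis, had 129 CPM in Control 1, 199 to 225 CPM in Control 2 to 5, 180 CPM in IS 4 and 106 to 131 CPM in the other IS libraries. It had a log2 fold change of -0.58 (adjusted p = 0.0487, edgeR). Psat1, the next enzyme, changed by -0.31, Shmt2, which makes glycine from serine, by -0.41, and Aldh18a1 and Pycr1, of the proline pathway, by -0.45 and -0.61. The amino acid transporters Slc7a5 (-0.44) and Slc7a1 (-0.43) were lower, and their groups did not overlap. Slc7a11, the cystine transporter, was at -0.33 (adjusted p = 0.146, edgeR) and Mthfd2 at 0.11 (adjusted p = 0.294, edgeR), neither past the threshold. In 14 of the 19 genes Control 1 was nearer to the IS mean, and in 15 IS 4 was nearer to the control mean.

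Promoters of genes of this list are shown because they can hold a CARE, the element TGATGNAA that ATF4 binds with C/EBP factors. RefSeq promoter windows of GRCm38.p6 were searched on both strands over the 250 bases before each start, and the element was found in 3.45% of all 32851 windows. Of 16 list members with a window 6 held it, and of 9 lower members with a window 3 held it, which were Chac1 (chr2:119350992-119351241, plus strand), Asns (chr6:7693210-7693459, minus strand) and Pycr1 (chr11:120643749-120643998, minus strand). The sequences run 5′ to 3′ along the gene's strand up to the base before the start, and capitals mark the element or its reverse complement.
Chac1: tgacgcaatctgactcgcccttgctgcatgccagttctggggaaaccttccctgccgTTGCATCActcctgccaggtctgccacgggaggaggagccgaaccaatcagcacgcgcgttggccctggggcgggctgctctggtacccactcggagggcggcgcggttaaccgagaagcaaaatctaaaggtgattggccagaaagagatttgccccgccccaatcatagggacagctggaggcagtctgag
Asns: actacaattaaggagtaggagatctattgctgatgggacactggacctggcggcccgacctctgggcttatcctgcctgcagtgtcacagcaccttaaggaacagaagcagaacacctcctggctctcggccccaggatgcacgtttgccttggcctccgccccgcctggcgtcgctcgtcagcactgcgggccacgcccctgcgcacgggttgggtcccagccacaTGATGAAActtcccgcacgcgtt
Pycr1: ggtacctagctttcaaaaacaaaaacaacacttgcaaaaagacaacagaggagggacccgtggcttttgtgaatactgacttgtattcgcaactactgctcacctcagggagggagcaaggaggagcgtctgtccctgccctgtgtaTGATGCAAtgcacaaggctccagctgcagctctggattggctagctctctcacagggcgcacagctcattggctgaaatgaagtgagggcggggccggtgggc
The element began 193 bases before the start in Chac1, 23 in Asns and 103 in Pycr1. Slc7a11, Nupr1 and Vldlr held it too and were not called. A match of these letters is a description and was not set against binding data.

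The second list shown with promoters holds genes of protein folding, translocation and degradation in the ER. Of 58 tested, 14 were lower and 2 higher (27.6% called, against 7.94% of all genes). Without the pair 28 were lower and 13 higher, against 21.6% and 23.8% of all genes, so that the higher calls were near the share over all genes. With the trends taken out of all libraries 13 were lower and 1 higher, against 1.85% and 2.24% of all genes. Hspa5, the chief HSP70 chaperone of the ER, had 1283, 1211, 1335, 1199 and 1248 CPM in control cells and 1074, 1076, 1064, 1058 and 1075 CPM with IS. The groups did not overlap and the libraries labelled Control 1 and IS 4 lay with their own groups, and the log2 fold change was -0.23 (SE 0.08, adjusted p = 0.094, edgeR). Calr, the lectin chaperone calreticulin, had 1434 CPM in Control 1, 1934 to 2064 CPM in Control 2 to 5, 1894 CPM in IS 4 and 1160 to 1394 CPM in the other IS libraries. It stood at -0.44 (log2 fold change, SE 0.12, adjusted p = 0.0636, edgeR), and at -0.65 without the pair. Hyou1 (-0.29) and Pdia4 (-0.32), which help proteins fold, and Herpud1 (-0.31) and the ubiquitin ligase Syvn1 (-0.26), which serve ER-associated degradation, were lower without overlap of the groups. Trib3, a pseudokinase induced by ATF4 and DDIT3, had 38.2, 56.2, 55.2, 61.7 and 62.1 CPM in control cells and 30.4, 33.8, 32.2, 36.5 and 38.3 CPM with IS. Only Control 1 and IS 5 overlapped, and the log2 fold change was -0.67 (SE 0.11, adjusted p = 0.00768, edgeR), or -0.44 with the trends taken out of all libraries. Xbp1, a transcription factor of the unfolded protein response, changed by -0.30, and Sec62 and Dnajc10 rose by 0.50 and 0.30. With the trends taken out of all libraries Sec62 was at 0.22, and at 0.25 with the pair left out as well.

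The ER stress response element, CCAAT and CCACG separated by 9 bases, was searched in the same windows and found in 0.113% of all of them. Of 49 list members with a window 9 held it, and of 11 lower members with a window 3 did, which were Hspa5 (chr2:34771840-34772089, plus strand), Calr (chr8:84846932-84847181, minus strand) and Syvn1 (chr19:6046326-6046575, plus strand). Capitals mark the element, its spacer included, on either strand.
Hspa5: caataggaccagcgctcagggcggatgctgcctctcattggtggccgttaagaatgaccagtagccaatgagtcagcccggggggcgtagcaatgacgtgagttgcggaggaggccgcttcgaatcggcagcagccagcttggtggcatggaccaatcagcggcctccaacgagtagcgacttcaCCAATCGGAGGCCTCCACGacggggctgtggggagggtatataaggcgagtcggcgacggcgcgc
Calr: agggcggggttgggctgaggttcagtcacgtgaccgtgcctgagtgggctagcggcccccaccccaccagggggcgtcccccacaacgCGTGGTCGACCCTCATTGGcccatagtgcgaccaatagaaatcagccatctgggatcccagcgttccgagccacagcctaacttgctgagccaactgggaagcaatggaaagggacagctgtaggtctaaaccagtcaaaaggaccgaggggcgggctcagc
Syvn1: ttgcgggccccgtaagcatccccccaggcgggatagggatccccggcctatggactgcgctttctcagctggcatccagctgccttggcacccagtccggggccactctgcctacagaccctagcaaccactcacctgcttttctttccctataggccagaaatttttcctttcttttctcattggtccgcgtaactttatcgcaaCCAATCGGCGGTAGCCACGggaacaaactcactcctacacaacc
The element began 65 bases before the start in Hspa5, 162 in Calr and 44 in Syvn1. Hsp90b1, Canx, Pdia6, Dnajc3, Creld2 and Derl3 held it and were not called.

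Of 32 collagen chains tested, 10 were lower and 1 was higher (34.4% called, against 7.94% of all genes). Without the pair 11 were lower and 5 higher, in total 50%, near the 45.4% of all genes. By direction, the lower calls were above the 21.6% and the higher calls below the 23.8% of all genes. With the trends taken out of all libraries 9 were lower and 2 higher, against 1.85% and 2.24% of all genes. Besides Col15a1 the chains lower with all libraries were those of collagens IV (Col4a1 -0.47, Col4a2 -0.41) and XVIII (Col18a1 -0.56) of basement membranes, of the fibrillar collagens I (Col1a1 -0.79, Col1a2 -0.54), III (Col3a1 -0.41) and V (Col5a3 -0.46), and of the microfibrillar collagen VI (Col6a1 -0.54, Col6a2 -0.68). Col4a1 had 5933, 6160.0, 5768, 6597 and 6504 CPM in control cells and 3844, 3968, 4155, 5680.0 and 4694 CPM with IS, so that IS 4 was the highest IS library and still below all control libraries. Col3a1 had 2558, 2490.0, 2276, 2627 and 2488 CPM in control cells and 1622, 1663, 1769.9, 2183 and 2133 CPM with IS. In Col4a1, Col3a1, Col5a3 and Col15a1 the groups did not overlap, while IS 4 lay above the lowest control library in Col1a1 and Col6a1. Col7a1, the anchoring fibril collagen, rose by 1.07 from 1.84 ± 0.902 to 3.83 ± 1.59 CPM (SD, n = 5, adjusted p = 0.0487, edgeR). Summed over the chains tested, collagen levels were 29249 to 34476 CPM in control and 19476 to 29625 CPM in IS libraries.

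Of 51 laminins, integrins and matrix receptors tested, 8 were called, all lower, and 7 of the 51 had groups that did not overlap, which held for 1.81% of all genes. Lama4, a laminin chain of adipocyte and vessel basement membranes, had 442, 454, 472, 459.7 and 469.6 CPM in control cells and 309.8, 311, 327, 403 and 353 CPM with IS. All IS libraries were lower (log2 fold change -0.43, adjusted p = 0.0614, edgeR). Lamc1 (-0.40), Lamb1 (-0.28), Lamb3 (-0.55) and Nid2 (-0.37) were lower without overlap, and the integrin Itga5 changed by -0.48. The called share was 15.7% of the 51 against 7.94% of all genes. Without the pair 11 were lower and 7 higher, and the lower ones were no larger a share than the 21.6% of all genes. Enzymes and a chaperone of collagen making, Plod1 (-0.49), Plod3 (-0.48) and Serpinh1 (-0.43), were the 3 called of 35 matrix enzymes and inhibitors, all lower. That is 8.57%, near the 7.94% of all genes called in either direction. Without the pair 14 were lower and 3 higher, in total 48.6%, near the 45.4% of all genes. By direction, the lower calls were above the 21.6% and the higher calls below the 23.8% of all genes.

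**Figure D4:**
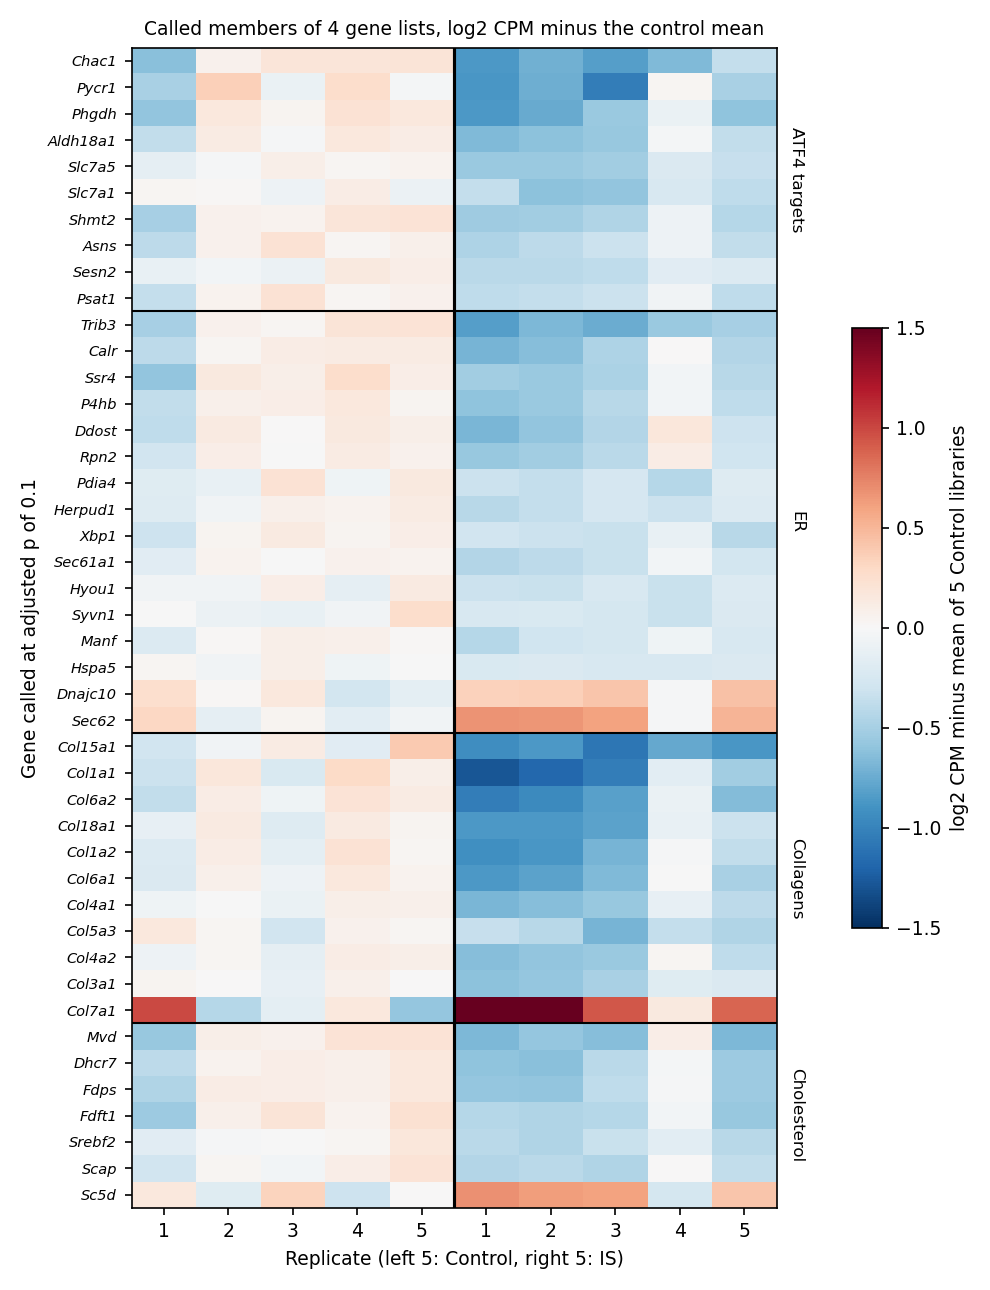
Log2 CPM minus the mean of the 5 Control libraries for the called members of 4 lists that are reported here (rows), in Control 1 to 5 and IS 1 to 5 (columns), with the colour scale ending at -1.5 and 1.5. Most rows are lower in IS 1, 2, 3 and 5, with IS 4 nearer to the controls and Control 1 nearer to IS, and Col15a1 and Hspa5 are low in all 5 IS libraries.

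Cholesterol synthesis and its control by SREBP2 showed 8 lower and 1 higher of 26 genes tested (34.6% called, against 7.94% of all genes). Without the pair 15 were lower and 6 higher, against 21.6% and 23.8% of all genes, so that the higher calls were near the share over all genes. Srebf2, which encodes SREBP2 itself, had 158, 175, 176, 182 and 200.5 CPM in control cells and 135, 130.0, 141, 159.9 and 133 CPM with IS. IS 4 lay above Control 1, while the other libraries did not overlap, and the log2 fold change was -0.35 (SE 0.09, adjusted p = 0.0538, edgeR). Its escort protein Scap changed by -0.33. Fdps (-0.42), Mvd (-0.49), Fdft1 (-0.40) and Dhcr7 (-0.44) were lower as well, and Sc5d rose by 0.44. With the trends taken out of all libraries 8 were lower and none higher, against 1.85% and 2.24% of all genes.

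In lipid storage, Dgat2 was joined by Dgat1 (-0.32), Fasn, the fatty acid synthase (-0.47), Slc27a4 (-0.47), Fads1 (-0.31) and Agpat3 (-0.32), so that 6 of 35 genes of fatty acid uptake and triglyceride synthesis were lower (20% of the list called, against 7.94% of all genes). Without the pair 17 were lower and 6 higher, against 21.6% and 23.8% of all genes. The fatty acid receptor Cd36 was the 1 higher gene of the list, at 1050 ± 198 against 768 ± 101 CPM (log2 fold change 0.45, adjusted p = 0.0817, edgeR). With the pair and the trends taken out Cd36 was at -0.08, the opposite direction. Of 37 lipid droplet and lipolysis genes 5 were lower and 1 higher (16.2% called). Without the pair 17 were lower and 5 higher, and when the trends were taken out of all libraries 3 were lower and none higher, against 1.85% and 2.24% of all genes. Mgll, monoacylglycerol lipase, had 13.0, 14.2, 15.9, 16.8 and 17.8 CPM in control cells and 10.8, 9.10, 10.2, 12.3 and 10.1 CPM with IS. All IS libraries were lower (log2 fold change -0.57, adjusted p = 0.0173, edgeR). Pnpla2, the first lipase of triglyceride breakdown, changed by -0.38 and the droplet protein Cidec by -0.48. Fabp4 (0.05) and Plin1 (-0.10) were not past the threshold. With the pair and the trends taken out Fabp4 turned to -0.32 and was called lower (adjusted p = 0.0157, edgeR), and Plin1 was at 0.08 and not called (adjusted p = 0.556, edgeR). Lpl, lipoprotein lipase, was at -0.22 (adjusted p = 0.142, edgeR) with groups that did not overlap. It was called without the pair (-0.24, adjusted p = 0.0426, edgeR), with the trends taken out (-0.47, adjusted p = 0.0553, edgeR) and with both (-0.72).

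Of the secreted adipokines, 7 of 24 tested were lower and none higher (29.2% called, against 7.94% of all genes), and without the pair 13 were lower and 3 higher, against 21.6% and 23.8% of all genes. Adipoq, adiponectin, had 818, 1033, 1206, 1096 and 1199 CPM in control cells and 764, 784, 827, 932 and 676 CPM with IS. Control 1 overlapped the IS libraries, and the log2 fold change was -0.43 (SE 0.13, adjusted p = 0.0719, edgeR). With libraries left out in turn Adipoq was called 2 of 10 times. Haptoglobin Hp (-0.57), complement C3 (-0.45), resistin Retn (-0.41), Sparc (-0.42), Apln (-0.22) and Ccdc80 (-0.43) were the others, and in Ccdc80 the groups did not overlap. Leptin, Lep, had under 1 CPM in every library and no change past the threshold. Of 29 adipogenic transcription factors, Cebpa (-0.46), Nr1h3 (-0.53), Ppard (-0.31), Rxra (-0.27) and Rxrb (-0.30) were lower and Klf9 higher (0.39), 20.7% of the list. Without the pair 10 were lower and 4 higher, in total 48.3%, near the 45.4% of all genes. By direction, the lower calls were above the 21.6% and the higher calls below the 23.8% of all genes. When the trends were taken out of all libraries, Nr1h3 and Ppard were the 2 still lower and none was higher (1.85% and 2.24% of all genes), with Cebpa at -0.24 (adjusted p = 0.18, edgeR) and Klf9 at 0.33 (adjusted p = 0.149, edgeR). With the pair left out as well, Cebpa was at -0.25 (adjusted p = 0.109, edgeR), not called, and Klf9 at 0.51 (adjusted p = 0.00303, edgeR), called. Pparg, the master regulator of adipocytes, was at -0.23 (adjusted p = 0.111, edgeR), with 138 to 184 CPM in control and 129 to 149 CPM in IS libraries. It was called without the pair (-0.28, adjusted p = 0.00936, edgeR) and with the trends taken out as well (-0.21, adjusted p = 0.0278, edgeR).

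Glycolysis genes were lower in 7 of 20 tested and none was higher (35% called, against 7.94% of all genes), and without the pair 15 were lower and 1 higher, against 21.6% and 23.8% of all genes. Eno1 had 557 CPM in Control 1, 909 to 1063 CPM in Control 2 to 5, 913 CPM in IS 4 and 527 to 563 CPM in the other IS libraries. The pair thus had the levels of the other group, and the log2 fold change was -0.56 (adjusted p = 0.0728, edgeR). Pkm (-0.46), Tpi1 (-0.49), Aldoa (-0.44), Gapdh (-0.49), Gpi1 (-0.39) and Pfkl (-0.33) were the others. With the trends taken out of all libraries, 1 was called (4.09% of all genes), while the median over the 20 genes went from -0.34 to -0.27. With the pair left out as well 11 were lower (16.1% of all genes), at a median of -0.36. The glucose transporter Slc2a1 was at 109, 106, 96.2, 113 and 108 CPM with IS and at 101, 169, 159.6, 171 and 181 CPM in control cells, so that only Control 1 lay within the IS range (log2 fold change -0.55, adjusted p = 0.0194, edgeR). Of fatty acid oxidation genes 3 of 27 were called, all higher, which were Pdk4 (0.44), a kinase that shuts off pyruvate dehydrogenase, Acadm (0.37) and Etfdh (0.28). That is 11.1% against 7.94% of all genes. Without the pair 5 were higher and 7 lower, 44.4% against 45.4% of all genes, so that the balance turned, and with the trends taken out of all libraries 1 was called, higher, where 4.09% of all genes were called.

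AhR, the receptor that indoxyl sulphate can bind, and its targets gave 1 higher and 1 lower gene of 11 tested (18.2% called, against 7.94% of all genes). Without the pair 2 were higher and 3 lower, 45.5% against 45.4% of all genes. Cyp1b1, a cytochrome P450 induced through AhR, had 308, 245, 251, 251.97 and 231 CPM in control cells and 320.2, 303, 332, 282 and 334 CPM with IS. Only Control 1 overlapped the IS libraries, and the log2 fold change was 0.29 (SE 0.09, adjusted p = 0.0882, edgeR). With libraries left out in turn it was called 2 of 10 times. It was no longer called with the trends taken out of all libraries (0.17, adjusted p = 0.136, edgeR). It was called without the pair (0.40, adjusted p = 0.00106, edgeR) and with the trends taken out as well (0.17, adjusted p = 0.0473, edgeR). Tiparp, another AhR target, was at 0.44 (adjusted p = 0.116, edgeR). It was called without the pair (0.66, adjusted p = 0.000871, edgeR), and at 0.11 with the trends taken out as well (adjusted p = 0.338, edgeR) it was not. Cyp1a1 had 0 counts in 4 of 5 control and 2 of 5 IS libraries and at most 0.378 CPM, so that no change in it was detectable at this depth, and Ahrr, with 4 counts over the 30 libraries, was not tested. Aldh3a1, an aldehyde dehydrogenase, changed by -0.82, and Nqo1, a target of AhR and Nrf2, by 0.04 (adjusted p = 0.82, edgeR). Ahr itself had 0.662 to 1.81 CPM in control and 0.805 to 1.14 CPM in IS libraries.

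Of 34 genes of the Nrf2 pathway, which governs oxidant defence, 1 was called (2.94%, against 7.94% of all genes), Gsta2, which was at or near 0 counts in every library and for which no fold is given, and without the pair 18 were lower and 5 higher (67.6% called, against 45.4% of all genes). Of 20 other antioxidant enzymes 1 was called (5%), the ER peroxidase Gpx8, which was higher (0.33, adjusted p = 0.0851, edgeR) with groups that did not overlap. Gpx8 was called with the trends taken out of all libraries (0.25, adjusted p = 0.0925, edgeR). With the pair left out as well it was not (0.14, adjusted p = 0.169, edgeR). Without the pair 13 of the 20 were lower and 3 higher, which is 80% against 45.4% of all genes. Among 9 NADPH oxidase genes tested 1 was called (11.1%, against 7.94% of all genes). It was Nox4, a source of hydrogen peroxide, at 3.41 ± 0.441 with IS against 2.19 ± 0.676 CPM (log2 fold change 0.62, adjusted p = 0.0694, edgeR). With the pair and the trends taken out Nox4 was at 0.06. Src was at -0.08 (adjusted p = 0.552, edgeR), while Yes1, of the same kinase family, rose by 0.75 and Csk, which inhibits the family, changed by -0.38.

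Cytokines, chemokines and adhesion molecules held 0 called genes of 23 tested by edgeR, where 7.94% of all genes were called, and without the pair 1 was higher and 4 lower (21.7%, below the 45.4% of all genes). Ccl2 had 1.29 ± 0.275 CPM in control cells and 1.16 ± 0.402 CPM with IS (adjusted p = 0.83, edgeR), and Il6, at no more than 0.18 CPM, was too sparse to compare. Of genes in Na,K-ATPase and inflammatory signaling, Chuk (0.55), Creb1 (0.45), Tlr4 (0.33), Prkca (0.19) and Nos3 (-0.70) were not past the threshold, at adjusted p-values from 0.134 to 0.328 (edgeR), and without the pair the first 4 were. With the trends taken out as well, Tlr4, Creb1 and Prkca were at -0.01, 0.04 and 0.02, while Chuk was at 0.38 and still called (adjusted p = 0.0106, edgeR). Cdkn1a, the p21 inhibitor of cyclin kinases, changed by -0.36 (adjusted p = 0.0742, edgeR). Of 31 TLR4 and NF-kappaB genes, Nfkbiz (0.91) and Tbk1 (0.53) were higher and Ticam1 (-0.37) and Tnfrsf1a (-0.35) lower (12.9% called, against 7.94% of all genes). Of 29 interferon response genes Iigp1 (0.86) and Gbp7 (0.71) were higher, which at 6.9% is below the share of all genes, and with the trends taken out of all libraries none was called. Of 36 p53 pathway genes Gadd45b (0.67), Gadd45g (0.76) and Trp53inp1 (0.74) were higher and Cdkn1a and Sesn2 (-0.31) lower (13.9%). Without the pair these lists had 12, 5 and 15 higher and 9, 2 and 8 lower genes, in the same order, against 23.8% and 21.6% of all genes, so that the interferon list stayed below both shares. By library totals alone the TLR4 list had 6 higher and 2 lower and the p53 list 7 and 1, and when the trends were taken out each had 1 and 1, where 4.09% of all genes were called.

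Zinc finger Zfp genes had more higher than lower calls. Of 344 tested 73 were higher and 8 lower, against 4.45% and 3.49% of all genes, at a median log2 fold change of 0.33, and without the pair 210 were higher and 31 lower, against 23.8% and 21.6% of all genes. With the trends taken out of all libraries 20 of them were higher and 2 lower, against 2.24% and 1.85% of all genes, and the median fell to 0.18. Zfp975 had 1.38 ± 0.373 CPM in control cells and 3.39 ± 1.41 CPM with IS (log2 fold change 1.31, adjusted p = 0.0443, edgeR), and reads of such families may be split between near-identical copies. Zfp36, an mRNA decay factor of another kind, was lower with 40.5 to 48.9 against 46.4 to 67.2 CPM (log2 fold change -0.44, adjusted p = 0.0359, edgeR). Ribosomal protein genes held 2 calls of 76, both lower (2.63%, below the 7.94% of all genes), but 70 lower calls without the pair, against 21.6% of all genes. Nuclear genes of the respiratory chain held 3 of 78 (3.85%), all lower, and 53 lower and 1 higher without it. The 13 protein-coding transcripts of the mitochondrial genome held 0 calls in edgeR, where 7.94% of all genes were called, with a median of 0.12, and with the trends taken out the median was -0.19. Without the pair 3 were higher (23.1%, near the 23.8% of all genes) and none lower, and with the trends taken out as well none was higher and 8 were lower, where 16.1% of all genes were lower, at a median of -0.34.

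**Figure D5:**
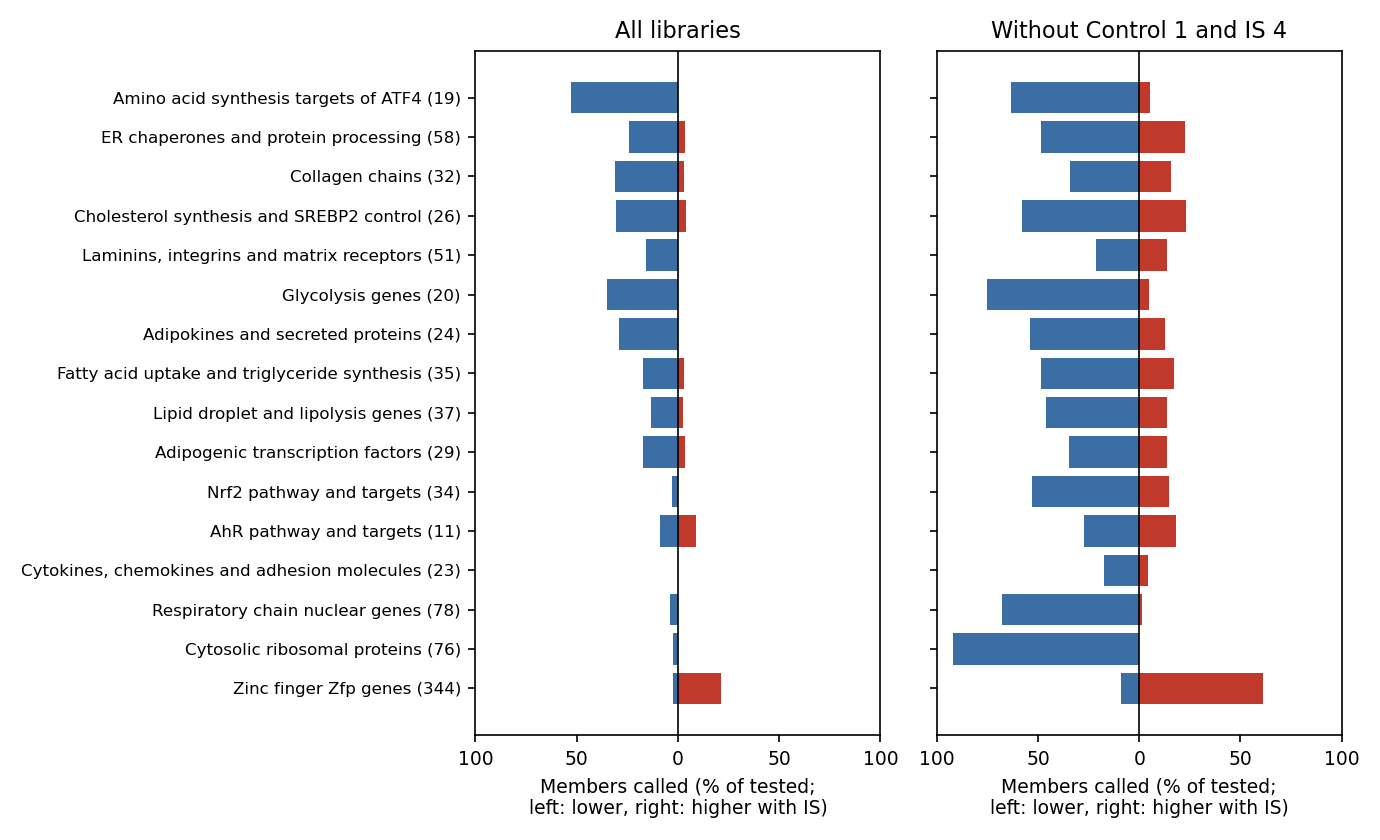
Share of tested members called lower (left bars) and higher (right bars) with IS in 16 gene lists, with the number tested in parentheses, for the fit of all libraries and for the fit without Control 1 and IS 4. ATF4 targets were lower in 10 of 19 and 12 of 19, while ribosomal protein genes went from 2 to 70 of 76 lower.

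IS and oxLDL, a lipoprotein particle modified by oxidation and taken up by scavenger receptors, were then compared directly. edgeR called 3 of 20139 genes (0.0149%), and 1047 had an unadjusted p under 0.05. These calls did not hold when the 10 libraries were fitted alone, or with a replicate block, where 0 genes were called by edgeR (1126 and 1276 at an unadjusted p under 0.05). With 1 library left out 0 to 2 genes were called (687 to 1433 at an unadjusted p under 0.05), with 0 in 8 of the 10 such fits. DESeq2 called 41. Rasd1 was lower with IS than with oxLDL, at 2.81 ± 0.233 against 4.96 ± 0.471 CPM (log2 fold change -0.81, adjusted p = 0.0972, edgeR), and the control level was 5.06 ± 0.751 CPM. Sptlc3, a subunit of serine palmitoyltransferase, was higher with IS, at 16.3 ± 2.03 against 10.1 ± 1.43 CPM (log2 fold change 0.70, adjusted p = 0.0972, edgeR), and also higher than in control cells (0.54, adjusted p = 0.047, edgeR). Rasl11a, a small GTPase of the Ras family, was 0.84 higher with IS than with oxLDL and 0.38 above control cells (adjusted p = 0.144, edgeR). Both agents were compared at a single dose each, and a gene that missed the threshold was not shown to respond alike to both.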

How the data were processed

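RNA of 3T3L1 adipocytes was sequenced in 30 libraries, of which the 10 of the IS and control groups are reported here, with the 5 oxLDL libraries for 1 comparison. From stranded mRNA libraries sequenced at both ends, the authors cleaned the reads with Trimmomatic 0.38, aligned them to GRCm38 with HISAT2 2.1.0 and counted them per gene with GenomicAlignments, and the deposited counts are without normalization. The deposited normalized values are a signal made by the authors from counts and 1 size factor per library (DESeq2 1.20.0 is named in the submitters' processing notes), and they were not used for a result. The deposited FPKM values were made by the authors per kilobase and sequencing depth and served 1 alternative, log2 transformed with a pseudocount of 1 where the mean was at least 0.5. Not given in the sources used here are the annotation release, the gene lengths and whether counting used the strand, so that overlapping and antisense genes are uncertain.

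Of 54232 genes, 20139 had over 14 counts in the sum of the 30 libraries and entered edgeR 4.0.16 with TMM factors and 1 coefficient for each of the 6 groups (robust quasi-likelihood test, BH adjustment, threshold 0.1, two-sided) in R 4.3.3. The common biological coefficient of variation was 14.0%. Library measures were compared by exact permutation in Python 3.11.15 with scipy 1.17.1. Alternatives used limma 3.58.1, DESeq2 1.42.0 and offsets for gene length and GC content from mgcv 1.9.3. Coordinates are from GENCODE vM21 on GRCm38. The steps were tested on simulated data. Pairs of libraries within a group had a chi-square per degree of freedom of 1.8 or more, and no pair was counted as 1 sample.

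Genes to name were taken by 3 rules. The first took, for higher and lower genes apart, up to 10 called genes by size of log2 fold change, provided that the groups did not overlap and mean log2 CPM was 1 or more. The second took from every gene list the called gene of lowest adjusted p on either side, and the third a fixed set of adipocyte, AhR and signaling genes. Some genes that these rules or the lists hold are not reported here. Further members are given to describe their lists. The comparison, its lists and the pair of libraries left out were chosen with earlier results of these data known.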

Additional observations from a re-analysis of the deposited data

Results flagged for a closer look

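The values of named genes and library measures were examined for 1 library lying far from the other 4 of its group, by Dixon's ratio at its 95% critical value (0.71 for 5 samples), which chance passes in about 1 of 20 groups. Of 226 groups of 5 values, 38 held such a library (16.8%), which was IS 4 in 24 and Control 1 in 11. The genes are not independent, since they share the libraries. IS 4 was the one apart among IS libraries on the first principal component (-28.2).

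Genes for which IS 4 was apart, with its CPM, were B230307C23Rik (3.48), Gpr35 (1.03), Aldh3a1 (2.72), Yes1 (9.21), Klf9 (49.1), Ccdc80 (105), Gnai3 (60.2), Dgat2 (243), Eno1 (913), Pcx (2975), Rps14 (510), Eif4a2 (76.6), Eif6 (135), Sec62 (68.1), Prelp (117), Plod3 (346), Ly6a (16.7), Tbk1 (17.5), Stat6 (122.9), Atg13 (84), Mfn2 (216), Tiparp (28.1) and Chuk (22.1).

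Genes for which Control 1 was apart from the other control libraries, with its CPM, were Tbc1d32 (8.94), Cyp1b1 (308), Slc2a1 (101), Uqcrc1 (396), Chac1 (13.6), Csrp1 (47.2), Stat6 (105), Calr (1434), Plk1 (10.3), Mfn2 (187) and Snhg6 (6.48). The remaining cases were Siglec1 in Control 5 (22.2 CPM) and Hist1h2aa in IS 3 (0.0671 CPM) and Cyp1a1 in Control 5 (0.378 CPM).

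The difference between IS and oxLDL passed the threshold in edgeR's test of the difference itself for Rasl11a (log2 difference 0.84, IS minus oxLDL), Sptlc3 (0.70) and Rasd1 (-0.81), each at an adjusted p of 0.0972. With 1 IS or oxLDL library left out, 0 to 2 genes were called, and with Control 1 and IS 4 left out 6 were.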

How the results depend on the processing

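The count of genes called between IS and control cells rested on which libraries entered. It was 1599 with all libraries, 9140 without Control 1 and IS 4, 10126 with only the 8 other IS and control libraries, and 15 to 6952 with 1 library left out. In edgeR it was 0 when the 10 libraries compared were fitted alone (3465 genes at an unadjusted p below 0.05), 3160 by DESeq2 and 10899 by limma-voom with sample quality weights. It was 2541 with library size only, 2424 with more than 14 counts in every library, 2490 with filterByExpr, 546 with at least 1 count, 130 at an adjusted p of 0.05, 763 after thinning, 824 with length and GC offsets, and 6612 with these offsets and the pair left out, an alternative added after seeing the data. With RLE size factors, limma-trend on FPKM, and offsets with the replicate block it stayed within 1.5 times. With the replicate block alone it was 3423. The deviations of same-numbered Control and IS libraries from their group means correlated at 0.73, -0.53, 0.33, 0.74 and -0.24. Those means included Control 1 and IS 4, which correlated at -0.79 with each other. These values thus cannot tell whether libraries of the same number belong together, and this was not tested. For IS against oxLDL the 3 calls became 6 without the pair, 41 by DESeq2, 7 with library size only, 12 with more than 14 counts in every library, 20 with length and GC offsets, 0 with the replicate block (1276 genes at an unadjusted p below 0.05 by edgeR), 0 with only those 10 libraries (1126 such genes), and 0 to 2 with 1 library left out (687 to 1433 such genes). The difference in reads counted ranged from 2403375 to 3379246 and that in the share of the 100 most abundant genes from -1.59 to -0.972 percentage points with 1 library left out, and both passed 0.05 without IS 4. The causes of these moves were not tested.

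Of 109 genes named, none that was called changed its direction without the pair, and 92 changed their side of the threshold with only the 10 libraries. Direction changed in the fit without the pair and with offsets for Cd36 (-0.076), Psmc6 (-0.0057), Fabp4 (-0.32), Plin1 (0.084), Lep (0.39), Nqo1 (-0.052), Tlr4 (-0.0087) and Src (0.17). It changed with offsets alone, and with offsets and the replicate block, for Fabp4 (-0.22 and -0.22), Plin1 (0.068 and 0.071), Tlr4 (-0.079 and -0.080) and Src (0.11 and 0.11), and with library size only for Plin1 (0.017), Lep (0.0084), Ccl2 (0.0060) and Src (0.037). It changed without the pair, with only 8 libraries and with quality weights for Lep (0.41, 0.43 and 0.70) and Nqo1 (-0.029, -0.0098 and -0.0036), and after thinning for Ccl2 (0.090). With 1 library left out the range held both signs for Fabp4 (-0.023 to 0.10), Lep (-0.37 to 0.29), Cyp1a1 (-0.99 to 2.60), Nqo1 (-0.019 to 0.072), Ccl2 (-0.23 to 0.025) and Il6 (-0.059 to 1.25). Cyp1a1, Il6 and Lep had too few counts for a change to be read at this depth.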
